A study of Osmanthus fragrans with 6 samples.

Results

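The full-bloom library of flowering round 1 (full 1) was compared with the initial-bloom library of flowering round 2 (initial 2), a pair of petal RNA libraries chosen by their stage labels from the 6 libraries of the series. The petals came, with no treatment, from outdoor trees of Osmanthus fragrans var. semperflorens in September, on dates that followed the stage of flowering. The other libraries were the opening of round 1 (initial 1), its late full bloom (late full 1), its petal fall (abscission 1) and the full bloom of round 2 (full 2). Each library was a pool of 5 replicates, so each stage is 1 library, no spread between pools was measured, and no test or p-value is given. The pools of full 1 and initial 2 differ in both stage and round, and those cannot be told apart in this pair. Differences are described as folds, and their intervals cover counting error only.

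Petals of sweet osmanthus open from small buds, colour through carotenoids held in plastids, release scent while open, and are shed after a short life. Opening depends on cell expansion, and the end of petal life involves breakdown of cell contents and loosening of cells at the base of the flower. The deposited table names transcripts by assembly IDs with no gene names and holds no sequences, so the transcripts are given by ID, no carotenoid gene or petal marker was picked out, and petal identity was not checked here.

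Full 1 held 19797486 counts and initial 2 held 39119106, which is 1.98 times as many. One count was worth 0.0505 CPM (a count scaled to a fixed library total, not scaled for transcript length) in full 1 and 0.0256 CPM in initial 2. Late full 1, abscission 1 and full 2 held 25917463, 17826687 and 19240154 counts, whereas initial 1 held 107466, so that a single count there is 9.31 CPM. Of 96596 transcripts, 25839 (26.7%) had at least 50 counts over full 1 and initial 2. They carried 99.2% of the counts of full 1 and 99.1% of those of initial 2. The 10 most abundant transcripts took 5.87% of counts in full 1 and 6.64% in initial 2. The other 70757 transcripts were too sparse to compare and are not described.

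Most transcripts stood at near-equal levels at full bloom of round 1 and at the opening of round 2. Of the 25839 compared, 21056 (81.5%) were within 2-fold between full 1 and initial 2. The median log2 ratio of full 1 to initial 2 was -0.10, with 25th and 75th percentiles of -0.54 and 0.27. At least 4-fold apart were 1124 transcripts (4.35%), of which 382 were higher in full 1 (1.48%) and 742 lower (2.87%). Beyond 16-fold were 27 transcripts higher and 100 lower in full 1. The higher transcripts made up 2.29% of the counts of full 1 and 0.392% of those of initial 2. For the lower transcripts these shares were 0.293% in full 1 and 1.79% in initial 2. In whole petals, fewer cells of a type and less RNA per cell cannot be told apart.

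The excess of lower transcripts lay among the sparse ones. Below a mean of 10 CPM, 214 of 14241 transcripts were higher and 587 lower in full 1. Between 10 and 100 CPM the numbers were nearly equal, 142 higher and 137 lower of 9544. Between 100 and 1000 CPM, 25 of 1983 were higher and 18 lower. Above 1000 CPM, 1 of 71 was higher and 0 lower. The minimum of 50 counts is reached at 2.53 CPM by a transcript found only in full 1, but at 1.28 CPM by one found only in initial 2. With at least 10 CPM in the higher library, 211 transcripts were higher and 213 lower in full 1. The 4-fold limit falls inside a continuous distribution. Transcript c152079_g1_i1, just inside it, stood at 33.0 CPM in full 1 against 8.21 CPM in initial 2, and c138783_g1_i1, just outside, at 4.29 against 1.02 CPM. On the lower side, c106909_g1_i1 was just inside at 1.67 CPM in full 1 against 6.88 CPM in initial 2, and c161629_g2_i1 just outside at 1.01 against 4.24 CPM.

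**Figure D1:**
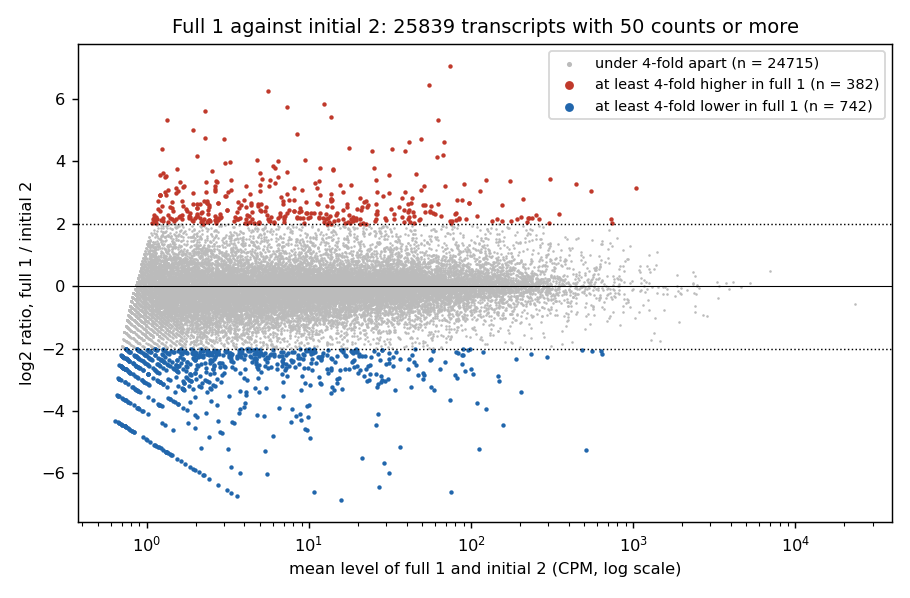
Log2 ratio of full 1 to initial 2 (y axis) against the mean level of both libraries in CPM (x axis, log scale), with 1 point per transcript and dotted lines at 4-fold. The 742 transcripts lower in full 1 crowd at low levels, whereas the 382 higher ones spread over the range, and the diagonal rows at lower left are transcripts with 0 or a few counts in full 1.

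Among the 5 deep libraries, full 1 and initial 2 had the smallest share of transcripts at least 4-fold apart. Next came late full 1 against full 1, with 1303 of 23059 transcripts (5.65%), and abscission 1 against full 2, with 7.57%. The share was 10.6% for full 2 against full 1 and 17.2% for full 2 against initial 2. It was highest for abscission 1 against initial 2, at 21.9%. With the 5 libraries thinned to an equal depth of 17826687 counts, full 1 and initial 2 still had the smallest share, at 3.80%, against 5.44% for late full 1 and full 1. With TMM scaling (a factor per library from the trimmed mean of its ratios) the shares were 4.31% and 5.50%. Because the pairs share libraries, their order is a description of these 5 pools.

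**Figure D2:**
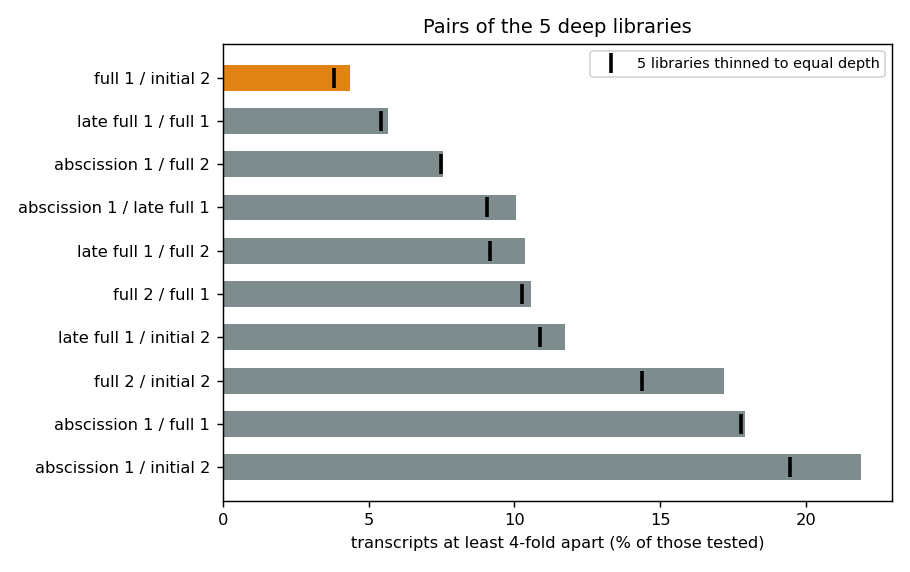
Share of tested transcripts at least 4-fold apart (x axis, percent) for the 10 pairs of the 5 deep libraries, with the share after thinning to equal depth as a black tick. The pair of full 1 and initial 2 (orange) is lowest at 4.35%, and abscission 1 against initial 2 is highest at 21.9%.

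The most abundant petal transcripts scarcely separated the pair. Transcript c143985_g1_i1 was the most abundant, at 18833 CPM in full 1 and 28216 CPM in initial 2, a log2 ratio of -0.58. It then stood at 40928 CPM in late full 1, 30458 in abscission 1 and 15931 in full 2. Transcript c144174_g2_i1 stood at 8105 CPM in full 1 and 5789 CPM in initial 2, and c157502_g1_i1 at 5462 and 5039 CPM. Both were much lower at abscission, at 1422 CPM for c144174_g2_i1 and 1051 CPM for c157502_g1_i1.

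The highest ratios belonged to transcripts that were nearly silent when round 2 opened. Transcript c116081_g1_i1 stood at 146 CPM in full 1 against 1.02 CPM in initial 2, on 2895 and 40 counts, and was 143-fold higher in full 1 (95% Clopper-Pearson interval 105 to 201). It was at 251 CPM in late full 1, 5.05 in abscission 1 and 125 in full 2. It was thus high in the 3 libraries of full and late full bloom and low at the opening of round 2 and at shedding. Transcript c141040_g1_i1 had the same shape, at 108 CPM in full 1 against 1.18 CPM in initial 2, a 92.1-fold difference (95% interval 68.8 to 126). It stood at 94.9 CPM in late full 1, 6.23 in abscission 1 and 57.4 in full 2. Both had 0 counts in initial 1, where 3 counts are 27.9 CPM, so levels as low as those of initial 2 were not detectable there.

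The next transcripts by ratio with at least 100 CPM in full 1 had smaller folds. They were likewise lower in abscission 1 than in late full 1. Transcript c151716_g3_i1 stood at 122 CPM in full 1 against 2.99 CPM in initial 2 and was 40.6-fold higher (95% interval 33.7 to 49.3). Its later levels were 32.2 CPM in late full 1, 3.93 in abscission 1 and 50.9 in full 2. Transcript c161729_g1_i1 stood at 131 CPM in full 1 against 5.24 CPM in initial 2 (24.9-fold, 95% interval 21.6 to 28.9), then at 186, 29.5 and 87.4 CPM in late full 1, abscission 1 and full 2. Transcript c156385_g5_i1 stood at 127 CPM in full 1 against 6.88 CPM in initial 2 (18.5-fold, 95% interval 16.3 to 21.1). It went on at 152 CPM in late full 1, 44.1 in abscission 1 and 80.4 in full 2. In initial 1, these transcripts had 2, 3 and 1 counts in the same order. Summed over their assembly clusters (IDs that share the part before "_g"), c151716_g3_i1, c161729_g1_i1 and c156385_g5_i1 had log2 ratios of 1.51, 1.46 and 1.30, all under the 4-fold limit. The other 2 stood alone in their clusters. All 5 of the abundant transcripts with the highest ratios were above initial 2 in each later library, which their choice by low levels in initial 2 favours. The margin was small for c151716_g3_i1 in abscission 1, at 3.93 against 2.99 CPM.

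Lower-level transcripts showed other courses. Transcript c139979_g1_i1 had 220 counts in full 1 (11.1 CPM) and 3 in initial 2 (0.0767 CPM), a ratio of 145 (95% interval 48.9 to 708). It had 0.270 CPM in late full 1, 0 counts in abscission 1 and 3.95 CPM in full 2, so among these 5 libraries it passed 1 CPM only at full bloom, in both rounds. Transcripts c158763_g2_i1 and c162218_g1_i1 instead passed 1 CPM only in full 1 and late full 1 among the 5 deep libraries. The level of c158763_g2_i1 was 24.3 CPM in full 1 against 0.358 CPM in initial 2, a 68.0-fold difference (95% interval 40.2 to 125), with 23.3 CPM in late full 1, 0.168 in abscission 1 and 0.624 in full 2. Its cluster sum was under the 4-fold limit, at a log2 ratio of 1.55. The level of c162218_g1_i1 was 14.4 CPM in full 1 against 0.205 CPM in initial 2, or 70.4-fold (95% interval 35.2 to 165), with 10.1 CPM in late full 1, 0.112 in abscission 1 and 1 count in full 2. One transcript, c144928_g1_i1, was found in full 1 with 53 counts (2.68 CPM) and had 0 counts in initial 2, at least 34.9-fold higher in full 1 against a floor of 3 counts per library. It had 3.70 CPM in late full 1, 3 counts in abscission 1 and 0 in full 2.

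**Figure D3:**
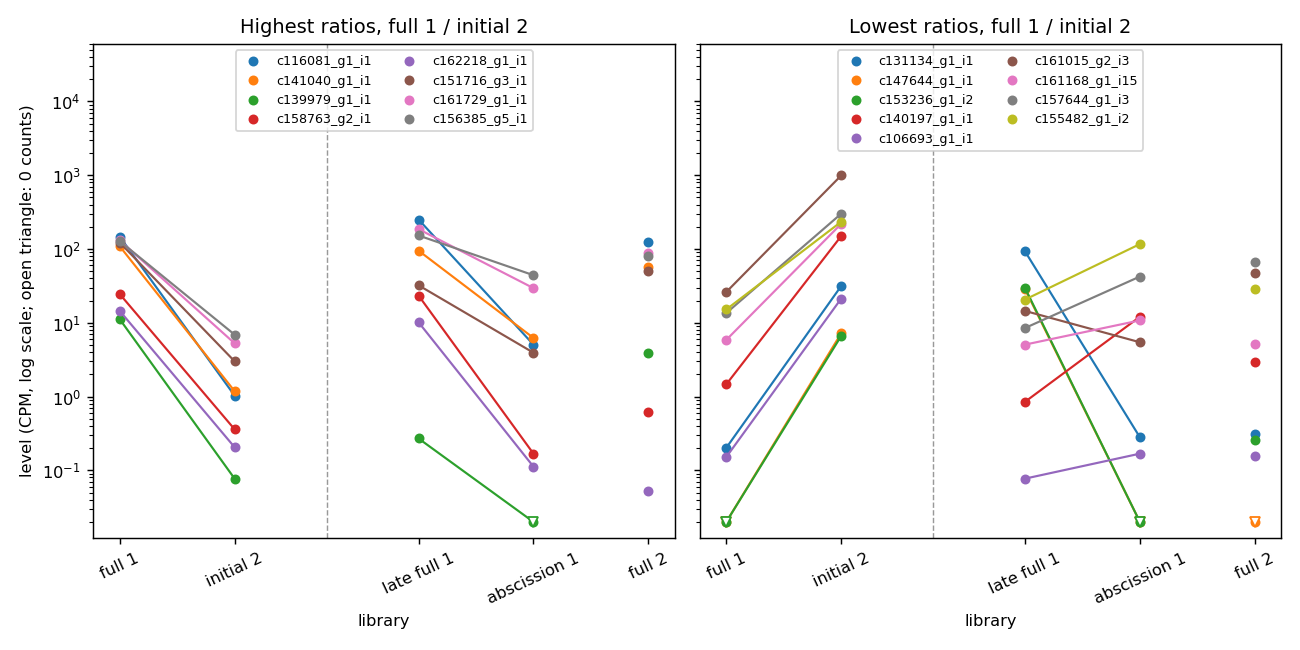
Levels in CPM (y axis, log scale) of the transcripts with the highest (left) and lowest (right) ratios of full 1 to initial 2, in the 5 deep libraries, with lines joining full 1 to initial 2 and late full 1 to abscission 1. On the left, c116081_g1_i1 returned to 125 CPM in full 2 whereas c162218_g1_i1 did not, and on the right c131134_g1_i1 stood at 0.202 CPM in full 1 and 92.8 CPM in late full 1; open triangles, drawn at the bottom, mark 0 counts.

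At the other end, transcripts low in full 1 included some that were abundant at the opening of round 2. Transcript c161015_g2_i3 stood at 26.1 CPM in full 1 against 991 CPM in initial 2 and was 37.9-fold lower in full 1 (95% interval 34.8 to 41.4). It remained low at 14.5 CPM in late full 1, 5.44 in abscission 1 and 47.0 in full 2. Initial 1 held 46 counts of it, or 428 CPM (95% exact interval 313 to 571). It was therefore high in both initial-stage libraries and low in the other 4. Transcript c161168_g1_i15 stood at 5.86 CPM in full 1 against 219 CPM in initial 2 (37.4-fold lower, 95% interval 31.1 to 45.3), with 5.05, 10.8 and 5.15 CPM in late full 1, abscission 1 and full 2. Initial 1 held 17 counts of c161168_g1_i15 (158 CPM, 95% exact interval 92.2 to 253).

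Transcript c140197_g1_i1 was 102-fold lower in full 1, at 1.46 CPM against 149 CPM in initial 2 (95% interval 71.0 to 152). It had 0.849 CPM in late full 1, 12.1 in abscission 1 and 2.91 in full 2. Initial 1 held 8 counts, or 74.4 CPM (95% exact interval 32.1 to 147). Transcript c157644_g1_i3 stood at 13.5 CPM in full 1 against 300.5 CPM in initial 2, 22.2-fold lower (95% interval 19.7 to 25.1), and came to 8.49, 42.3 and 67.3 CPM in late full 1, abscission 1 and full 2. Transcript c155482_g1_i2 stood at 15.2 CPM in full 1 against 234 CPM in initial 2 (15.4-fold lower, 95% interval 13.7 to 17.4), with 20.6 CPM in late full 1, 117 in abscission 1 and 28.5 in full 2. Its 26 counts in initial 1 are 242 CPM (95% exact interval 158 to 354).

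The lowest ratios of all fell on sparser transcripts, several of which were high in late full 1. Transcript c131134_g1_i1 had 4 counts in full 1 (0.202 CPM) against 1230 in initial 2 (31.4 CPM), a 156-fold difference (95% interval 60.6 to 572). It stood at 92.8 CPM in late full 1, 0.280 in abscission 1 and 0.312 in full 2. Transcript c147644_g1_i1 was absent from full 1, with 0 counts against 281 in initial 2 (7.18 CPM), or at least 47.4-fold lower, then 28.6 CPM in late full 1 and 0 counts in abscission 1 and full 2. For c153236_g1_i2, full 1 held 0 counts and initial 2 held 259 (6.62 CPM), at least 43.7-fold lower, then 29.6 CPM in late full 1, 0 counts in abscission 1 and 5 in full 2. The neighbouring stages of round 1 thus lay far apart for these 3. Transcript c106693_g1_i1 was instead above 3 counts only in initial 2 among the 5 deep libraries, with 3 counts in full 1 (0.152 CPM) against 831 in initial 2 (21.2 CPM), a ratio of 140 (95% interval 47.8 to 681). It had 2 to 3 counts in each of late full 1, abscission 1 and full 2. Initial 1 held 1 count (9.31 CPM), too few to place it.

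Absence was nearly one-sided, with the deeper library of the pair as the one that held the counts. In full 1, 53 transcripts had 0 counts against 50 to 281 counts in initial 2, whereas only c144928_g1_i1 had 0 counts in initial 2. A count of 0 allows up to 0.152 CPM in full 1 and 0.0767 CPM in initial 2. The 53 stood at 1.28 to 7.18 CPM in initial 2, through which alone they reached the minimum of 50 counts. A transcript found only in full 1 needed 2.53 CPM to reach it. Depth and the minimum thus favour absence from full 1 in this count. Of the 53, 21 were under 1 CPM in late full 1, abscission 1 and full 2 alike, and 25 reached 1 CPM in full 2. Full 2 was above initial 2 for 23 of the 53, and abscission 1 for 6. Late full 1 was above initial 2 for 5, among them c147644_g1_i1 and c153236_g1_i2. The same was not counted over all transcripts, so these numbers describe the 53 only. The highest level in full 2 among the 53 belonged to c162187_g1_i1, which had 0 counts in full 1 against 120 in initial 2 (3.07 CPM), then 0 counts in late full 1, 1 count in abscission 1 and 203 CPM in full 2. The next highest, c157384_g1_i1, had 0 counts in full 1 against 216 in initial 2 (5.52 CPM), then 1 count in late full 1, 0.449 CPM in abscission 1 and 174 CPM in full 2. Both were picked out after their values were seen.

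The 84 differing transcripts with at least 100 CPM in the higher library were 49 higher and 35 lower in full 1. Of the 49, 28 were highest in full 1 among the 5 deep libraries, 12 in late full 1, 6 in full 2 and 3 in abscission 1. Their median levels were 203 CPM in full 1 and 30.9 CPM in initial 2, then 152 CPM in late full 1, 64.5 in abscission 1 and 145 in full 2. Of the 35 lower ones, 33 were highest in initial 2 and 2 in abscission 1. Their median levels were 30.4 CPM in full 1 and 174 CPM in initial 2, then 20.6, 46.4 and 43.6 CPM in late full 1, abscission 1 and full 2. Over all 25839 transcripts, full 1 was highest for 23.3% and initial 2 for 39.2%, or 17.4% and 26.1% with TMM scaling. Both sets were chosen on full 1 against initial 2, which favours the higher library of the pair as the highest of the 5. By median level, the higher ones stayed up in late full 1 and full 2, and the lower ones stayed under initial 2 in all 3 later libraries. Because the pair chose both sets, later levels under its higher library are favoured by that choice, and these medians are a description only.

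Among the most abundant of these transcripts, picked by level after the data were seen, were the following. Transcript c149094_g1_i1 stood at 1865 CPM in full 1 against 208 CPM in initial 2, 8.96-fold higher (95% interval 8.75 to 9.18), with 2084 CPM in late full 1, 809 in abscission 1 and 1578 in full 2. Transcript c151536_g1_i1 stood at 983 CPM in full 1 against 118 CPM in initial 2 (8.31-fold, 95% interval 8.05 to 8.58), with 854, 141 and 575 CPM in late full 1, abscission 1 and full 2. A different course belonged to c237633_g1_i1, at 1190 CPM in full 1 against 292 CPM in initial 2 (4.07-fold, 95% interval 3.98 to 4.16), with 500.3, 81.3 and 626 CPM. At a like level, c143993_g1_i1 stood at 1190 CPM in full 1 against 268 CPM in initial 2, then at 734, 144 and 499 CPM. Lower in full 1 were c207599_g1_i1, at 231 CPM against 1046 CPM in initial 2, and c152337_g1_i2, at 243 against 1030 CPM. Their later levels stayed under initial 2. They were 372, 143 and 492 CPM for c207599_g1_i1 in late full 1, abscission 1 and full 2, and 120.0, 124 and 301 CPM for c152337_g1_i2. In initial 1, c207599_g1_i1 had 149 CPM (95% exact interval 85.1 to 242) and c152337_g1_i2 had 354 CPM (95% exact interval 250.2 to 485), so neither was as high there as in initial 2.

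**Figure D4:**
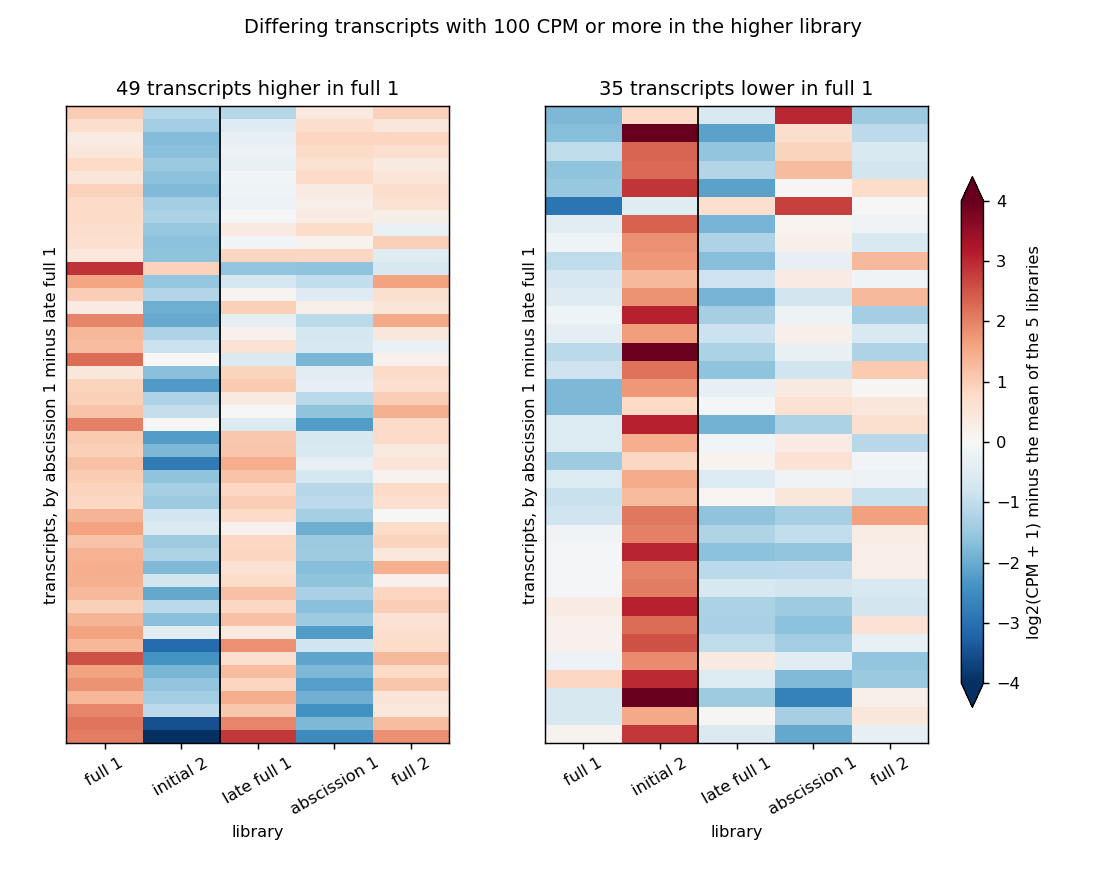
Levels of the 84 differing transcripts with at least 100 CPM in the higher library, as log2(CPM + 1) minus each transcript's mean over the 5 deep libraries (colour; red above, blue below, ending at 4 either way), for 49 transcripts higher in full 1 (left) and 35 lower (right). On the left, late full 1 and full 2 resemble full 1 for most rows while abscission 1 varies. On the right, 33 of 35 are highest in initial 2, which the choice of the sets on full 1 against initial 2 favours.

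The later course over all 1124 differing transcripts was read from pairs that do not hold full 1 or initial 2. Of the 382 higher in full 1, 205 (53.7%) were at least 2-fold lower in abscission 1 than in late full 1, against 23.9% of all 25839 transcripts, and 65 (17.0%) were at least 2-fold higher, against 8.56%. The median log2 ratio of abscission 1 to late full 1 was -1.22 for these 382 and -0.33 over all transcripts. Of the 742 lower in full 1, 295 (39.8%) were at least 2-fold higher in abscission 1 than in late full 1, and 117 (15.8%) at least 2-fold lower. Their median log2 ratio was 0.64. The medians of the 2 sets thus lay on either side of that of all transcripts. With TMM scaling, which set the median of all transcripts at 0.02, 44.4% of 430 higher transcripts were at least 2-fold lower at abscission, against 16.5% of all, and 48.8% of 683 lower transcripts were at least 2-fold higher, against 13.8%.

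Between full 2 and late full 1 the balance of the 382 higher transcripts turned with the settings. In that pair 88 (23.0%) were at least 2-fold higher in full 2 and 97 (25.4%) at least 2-fold lower, against 12.2% and 18.2% of all transcripts. With a minimum of 200 counts 56 were higher and 39 lower, against 1856 and 1767 of all 16898 transcripts with that minimum. The balance over all transcripts thus turned as well. At the 8-fold limit 19 members were higher and 33 lower. Of the 742 lower in full 1, 243 (32.7%) were at least 2-fold higher in full 2 than in late full 1 and 136 (18.3%) at least 2-fold lower. Many lower transcripts are sparse, and 399 of the 742 had 50 counts or more over full 2 and late full 1. Of those 399, 167 (41.9%) were at least 2-fold higher in full 2 and 64 at least 2-fold lower, against 2558 and 3048 of all 21235 transcripts with that minimum. Over abscission 1 and late full 1, 361 of the 742 had 50 counts or more, with 172 (47.6%) at least 2-fold higher in abscission 1 and 61 (16.9%) at least 2-fold lower, against 8.41% and 20.4% of all 20765.

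Single transcripts carried these later moves to extremes. Among those higher in full 1, c147876_g1_i2 stood at 28.0 CPM in full 1 against 2.89 CPM in initial 2, then at 17.4 CPM in late full 1, 118 in abscission 1 and 46.8 in full 2. Transcript c145952_g1_i3 stood at 24.0 CPM in full 1 against 3.43 CPM in initial 2, then at 5.79, 48.2 and 65.4 CPM. Both were thus higher at shedding than at either stage of the pair. The cluster sum of c147876_g1_i2 was under the 4-fold limit in the pair, at a log2 ratio of 1.78. Among those lower in full 1, c131507_g1_i1 stood at 2.58 CPM in full 1 against 14.8 CPM in initial 2, then at 17.0 CPM in late full 1, 429 in abscission 1 and 37.9 in full 2. Transcript c148226_g1_i1 went the other way, with 2.22 CPM in full 1 against 10.8 CPM in initial 2, then 286 counts in late full 1, 0 counts in abscission 1 and 0.416 CPM in full 2. Transcript c91280_g1_i1 had 2.22 CPM in full 1 against 49.5 CPM in initial 2, with 1 count in late full 1, 2.64 CPM in abscission 1 and 1.30 CPM in full 2.

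Full 2 and late full 1 separated further members. Transcript c135600_g1_i1 stood at 46.7 CPM in full 1 against 3.32 CPM in initial 2, then at 2.66 CPM in late full 1, 4.15 in abscission 1 and 74.7 in full 2. Among the 5 deep libraries it was thus high at full bloom in both rounds, and in round 1 it was low at late full bloom. Transcript c157332_g2_i1 had 4.19 CPM in full 1 against 17.4 CPM in initial 2, then 0.849 and 2.52 CPM in late full 1 and abscission 1, and 18.5 CPM in full 2, and its 3 counts in initial 1 are 27.9 CPM. Summed over its cluster, the log2 ratio of full 1 to initial 2 was -0.39. Its own difference in the pair, 4.14-fold lower in full 1, was 3.94-fold with TMM scaling, under the 4-fold limit. Transcript c131744_g1_i1 had 6.87 CPM in full 1 against 29.2 CPM in initial 2, then 59.8 CPM in late full 1, 1.01 in abscission 1 and 0.104 in full 2. In initial 1, c131744_g1_i1 had 14 counts (130 CPM).

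Where each later library lay relative to the levels of full 1 and initial 2 was set out for all 1124, with nearness taken on the log scale. Nearness includes levels beyond the range of the pair. Below both, between and above both were 323, 360 and 59 of the 742 lower transcripts in late full 1. These numbers were 258, 374 and 110 in full 2, and 254, 388 and 100 in abscission 1. For the 382 higher transcripts they were 18, 259 and 105 in late full 1. They were 35, 229 and 118 in full 2, and 105, 193 and 84 in abscission 1. Full 2 shares the stage of full 1 and the round of initial 2. It was nearer to full 1 for 277 of the 382 higher transcripts (72.5%) and for 524 of the 742 lower ones (70.6%). Late full 1 was nearer to full 1 for 293 (76.7%) of the higher and 565 (76.1%) of the lower. Abscission 1 was nearer to full 1 for 164 (42.9%) of the higher and 475 (64.0%) of the lower. The abscission shares depended on the scaling: with TMM they were 54.7% of 430 and 50.8% of 683. Initial 1 shares the stage of initial 2 and the round of full 1, and at its depth it could be read only for the 84 abundant transcripts. It was nearer to initial 2 for 25 and to full 1 for 24 of the 49 higher ones, and nearer to initial 2 for 22 and to full 1 for 13 of the 35 lower ones. Where its counting interval was clear of the midpoint, it lay with initial 2 for 14 and with full 1 for 8 of the higher, and with initial 2 for 13 and with full 1 for 4 of the lower. For the other 45 of the 84 the depth of initial 1 did not allow a placing. The placings of initial 1 are by column total and were not repeated with TMM. Its TMM factor was 1.51, against 1.06 for full 1 and 1.11 for initial 2. TMM scaling would thus lower its levels relative to both, toward initial 2 for the higher set and toward full 1 for the lower. All these counts of placings describe the members and share the pair's own libraries, so they are no test of stage against round.

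Several recurrent courses were counted, with limits chosen after the data were seen. The limits are set against full 1 or initial 2, the library in which the members were chosen as high. That choice favours lower levels elsewhere. The same limits were not counted over all transcripts, so the numbers describe the members only. Of the 382 higher in full 1, 91 stayed at 50% or more of full 1 in late full 1, abscission 1 and full 2, or 150 of 430 with TMM scaling. Examples were c155684_g2_i1, at 582 CPM in full 1 against 117 CPM in initial 2, then 338, 409 and 707 CPM, and c138424_g1_i1, at 418 against 85.6 CPM, then 645, 395 and 469 CPM. A further 44 stayed at 50% or more in late full 1 and full 2 and were under 25% in abscission 1. Among them was c153818_g1_i1, at 561 CPM in full 1 against 51.5 CPM in initial 2, then 434, 52.8 and 319 CPM. The course of c158763_g2_i1, which kept 50% or more in late full 1 and was under 25% in abscission 1 and full 2, was shared by 28. The course of c135600_g1_i1, high in full 2 and under 25% of full 1 in late full 1 and abscission 1, was shared by 10, including c140148_g1_i1 at 116 CPM in full 1 against 6.47 CPM in initial 2, then 22.2, 13.2 and 84.8 CPM. Under 25% of full 1 in all 3 later libraries were 7. The most abundant was c151002_g1_i1 at 181 CPM in full 1 against 38.1 CPM in initial 2, then 25.2, 9.82 and 42.4 CPM. A further 202 of the 382 followed none of these courses.

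For the 742 lower in full 1 the limits were set against initial 2, and the choice of members favours levels under it. Of these 742, 253 (34.1%) were under 25% of initial 2 in late full 1, abscission 1 and full 2, or 171 of 683 with TMM scaling. Transcripts c161015_g2_i3 and c161168_g1_i15 were of this kind, as was c18804_g1_i1, at 15.2 CPM in full 1 against 202 CPM in initial 2, then 5.44, 8.86 and 35.8 CPM. A second kind, with 41 transcripts, or 62 with TMM scaling, was above initial 2 in abscission 1 and full 2 and not in late full 1. Transcript c149324_g1_i4 was among them, at 3.89 CPM in full 1 against 20.0 CPM in initial 2, then 8.49, 79.3 and 29.2 CPM. Another kind, with 43, was above initial 2 in full 2 and under 25% of it in late full 1, such as c149557_g1_i1, at 6.01 CPM in full 1 against 26.3 CPM in initial 2, then 2.82, 26.1 and 29.9 CPM. These last 2 kinds shared 11 transcripts. The course of c131134_g1_i1, above initial 2 in late full 1 and under 25% of it in abscission 1 and full 2, was shared by 24. Their median levels were 0.253 CPM in full 1 and 3.78 CPM in initial 2, then 11.2 CPM in late full 1, 0.112 in abscission 1 and 0.156 in full 2. Transcript c5978_g1_i1 was one, at 0.808 CPM in full 1 against 9.07 CPM in initial 2, then 87.6, 0.337 and 0.624 CPM.

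**Figure D5:**
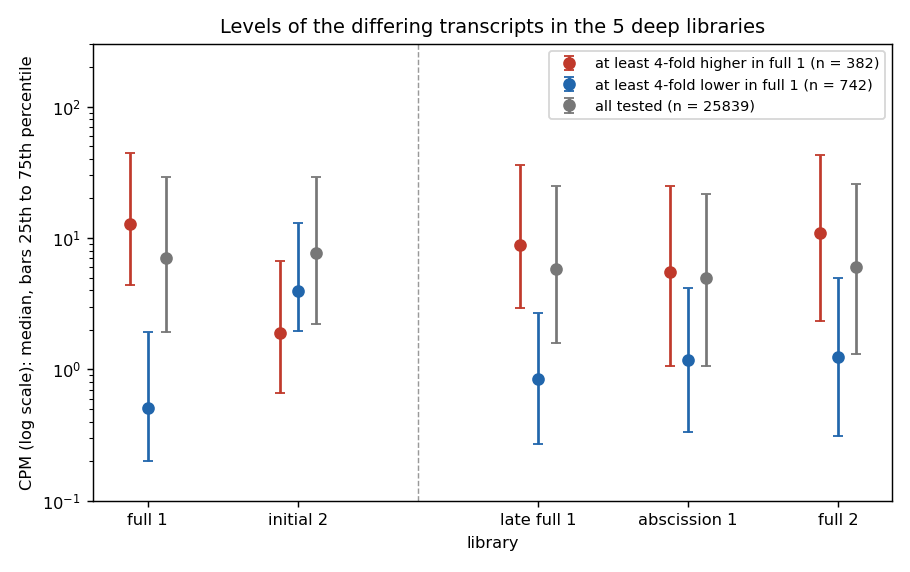
Median level in CPM (y axis, log scale; bars from the 25th to the 75th percentile over transcripts) in the 5 deep libraries for transcripts at least 4-fold higher in full 1 (red), at least 4-fold lower (blue) and all tested (grey). The red medians were 12.9 CPM in full 1, 1.90 in initial 2, 8.86 in late full 1 and 5.55 in abscission 1, while the blue medians were 0.505, 3.94, 0.849 and 1.18 CPM; the first pair of columns chose the red and blue sets.

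Transcript IDs carry a leading part before "_g" that groups them into assembly clusters, and how reads of close copies were divided is not stated, so levels within a cluster are uncertain. The 1124 differing transcripts fell in 1046 clusters, of which 67 held 2 or more of them. Of 391 differing transcripts with another tested transcript in the cluster, 140 had one at least 4-fold apart the same way and 8 had one at least 4-fold apart the opposite way. Summed over clusters, 256 of 20119 clusters were at least 4-fold higher and 559 lower in full 1. The cluster sum was at least 4-fold apart the same way for 839 of the 1124 (74.6%). Most of these 839 had no other tested transcript in the cluster, so their sum is close to their own level. Of the 391 that had one, the sum was apart the same way for 133 and not for most. In cluster c162218, 3 of 3 tested transcripts were higher in full 1. In cluster c91280, 3 of 3 were lower: beside c91280_g1_i1, c91280_g2_i1 had 0.808 CPM in full 1 against 15.8 CPM in initial 2 and c91280_g3_i1 had 0.354 against 11.6 CPM, and each of the 3 had 1 count in late full 1. In cluster c151754, 4 of 5 tested transcripts were lower, the most abundant of the 4 being c151754_g2_i1 at 0.909 CPM in full 1 against 61.6 CPM in initial 2.

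Other clusters held members that parted. In cluster c156385, c156385_g4_i2 (94.3 CPM in full 1 against 3.50 CPM in initial 2) went with c156385_g5_i1, whereas c156385_g1_i1, c156385_g2_i1 and c156385_g3_i1 were within 2-fold. In cluster c151716, c151716_g2_i2 stood at 428 CPM in full 1 against 96.0 CPM in initial 2, alongside c151716_g3_i1, while c151716_g1_i1 was lower in full 1, at 52.7 against 113 CPM. Members at least 4-fold apart in opposite ways met in 3 clusters, c145865, c155447 and c160070, and their sums had log2 ratios of -0.13, -0.18 and -0.57. In c160070, c160070_g2_i1 stood at 15.1 CPM in full 1 against 3.63 CPM in initial 2, and c160070_g5_i1 at 13.0 against 55.7 CPM. Whether members of such clusters are copies, alleles or spliced forms was not tested.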

How the data were processed

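Per the labels' protocols, petal RNA was extracted with TRIzol, selected with poly-T beads and made into Illumina libraries. Per the series' title and design text, reads were assembled de novo and 5 replicates were pooled per library. The submitters' processing notes name CASAVA 1.7. No assembler, aligner, counter or rule for shared reads is named in those sources. The authors deposited estimated counts (expected counts) for 96596 transcripts in 6 columns, unscaled, with 36 to 855 decimal values a column, and these were rounded. Each column name matched 1 sample, leaving 0 columns without one.

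Levels are CPM by column total. Log2 ratios of full 1 to initial 2 used CPM raised by that of 2 counts at the mean depth of the pair (0.0679 CPM), for transcripts with at least 50 counts over the pair. At least 4-fold was counted as differing. With 1 library per group there was no test. Fold intervals are exact 95% Clopper-Pearson limits from both counts, and a 0 was set to a floor of 3 counts. Reads are not independent molecules, so intervals and floors cover counting error only. The ratio calls of the pair were tested on simulated counts, with changes set only in transcripts with many counts. The courses, placings, thinning and cluster sums were not tested in that way.

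Members, limits and comparisons were chosen with earlier results of these data known. Named transcripts were the 5 highest and 5 lowest ratios with 200 counts in the higher library, the same with 100 CPM, up to 2 each way with 0 counts in the lower library, the extremes of abscission 1 or full 2 over late full 1 among members with 10 CPM, and the 3 most abundant. Others are examples of a course or cluster, or among the most abundant, taken after their values were seen. Alternatives were TMM factors from edgeR 4.0.16 over the 6 libraries or over the pair, DESeq2 1.42.0 size factors, other minimums, folds and priors, thinning, and sums by cluster. R 4.3.3, Python 3.11.15, NumPy 2.4.6, pandas 2.3.3, SciPy 1.17.1 and matplotlib 3.10.9 were used.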

Additional observations from a re-analysis of the deposited data

How the results depend on the processing

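No paired analysis was possible because each group is 1 pooled library, and for the same reason no library could be left out. TMM over 6 libraries or over the pair, DESeq2 size factors, priors of 0.5 and 5 counts, thinning of initial 2 and cluster sums kept the counts of higher and lower transcripts within 1.5 times of 382 and 742. TMM over 6 libraries multiplied every fold of full 1 over initial 2 by 1.05 and DESeq2 by 1.07. Lower transcripts near the limit then fell under 4-fold, among them c157332_g2_i1 and c106909_g1_i1 in both, and c131744_g1_i1 and c152337_g1_i2 in DESeq2. The number higher was 697 with a minimum of 10 counts, 842 with no minimum, 236 with 200 counts, 211 with 10 CPM, 1748 at 2-fold and 93 at 8-fold. The number lower was 2196, 2677, 323, 213, 3035 and 235 in the same order, and 444 with at least 3 CPM in the higher library, a setting chosen after seeing the data. Without a minimum the median log2 ratio was -0.29, and 53705 transcripts were within 2-fold, or 32692 with 10 counts. The level of 2 counts added to both libraries pulls nearly empty transcripts toward equality, so these 2 numbers do not measure likeness.

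For the course of the higher transcripts, set against late full 1, the 8-fold limit left 12 higher and 67 lower at abscission 1, and 19 higher and 33 lower at full 2. A minimum of 200 counts left 42 and 125, and 56 and 39, which turned the balance for full 2; over all transcripts with 200 counts, 1856 were higher and 1767 lower in full 2 and 1125 higher and 3040 lower in abscission 1, of 16898. For the lower transcripts these were 118 and 37, and 100 and 39 at 8-fold, and 142 and 45, and 107 and 40 with 200 counts. With 50 counts in the later pair, a setting chosen after seeing the data, 172 were higher and 61 lower in abscission 1, and 64 lower in full 2. These settings keep fewer transcripts by construction. With DESeq2, 162 higher transcripts stayed at 50% or more of full 1, 62 lower ones exceeded initial 2 in abscission 1 and full 2, and 163 stayed under 25% of initial 2. These scalings of the courses were also chosen after seeing the data. With TMM the first of these numbers was 150 and the second 62.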
